A study of Mus musculus with 5 samples.

Results

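GSK 690693, an ATP-competitive inhibitor of the AKT kinases that also inhibits AMPK, was compared with vehicle in mouse embryonic fibroblasts (MEFs) whose endogenous STING gene is disrupted and into which the R284S variant of STING was introduced. R284S is a gain-of-function form of STING, the adaptor that passes the cytosolic DNA-sensing signal to the kinase TBK1 and the transcription factor IRF3. Of the 5 arrays of the series, 2 make up this comparison, 1 hybridised with RNA from cells treated with GSK 690693 and 1 with RNA from cells given vehicle. The arrays for Compound C (an inhibitor of AMPK and of BMP type I receptors), doxorubicin (a topoisomerase II poison) and tofacitinib (a JAK inhibitor) came from the same STING-/- cells with R284S and are given beside them. Per the labels, cells described as primary MEFs were treated for 9 hours, with the duration stated for the inhibitors and not separately for vehicle. Doses, the number of clones and any batches were not given in the sources used here. All 5 groups carry the variant, so none shows the cells without it. With 1 array per group there is no error, no test and no p-value for any value here, and every difference is one between single arrays.

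Genes were chosen from probe sets annotated with 1 symbol, each gene being represented by its probe set of highest mean signal, and kept where the highest of the 5 log2 signals reached the median of its array. This left 12311 of 22180 genes. Differences are log2 signal with GSK 690693 minus log2 signal with vehicle, so that 1 is 2-fold. The median log2 signal of the kept genes was 7.29 for GSK 690693 and 7.22 for vehicle. All 14 fibroblast markers were kept, against 4 of 12 for macrophages, 2 of 10 for endothelium, 5 of 10 for epithelium, 5 of 10 for skeletal muscle and 1 of 10 for lymphocytes. The median difference was 0.05 for the fibroblast list and −0.19 for the muscle list, in which 1 marker was past 1.5-fold lower. The probe set of Sting1 read 5.11 with GSK 690693 and 5.12 with vehicle, below the filter. Where its probes lie relative to the disruption and to the introduced copy is not known, so its signal is no check of either.

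AKT is activated downstream of receptor tyrosine kinases and PI3K. It restrains FOXO transcription factors, which when released induce genes of receptors and adaptors of the same pathway, and it promotes mTORC1 activity. On the other arm, STING signalling through TBK1 and IRF3 induces interferon beta and early chemokines, and secreted interferon then acts through JAK kinases and a transcription factor complex that holds IRF9, which binds interferon-stimulated response elements in the promoters of antiviral genes.

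The difference between both arrays was small for most genes and more of its values past 2-fold lay on the lower side than on the higher one. At least 2-fold lower with GSK 690693 were 74 of 12311 genes (0.601%), and at least 2-fold higher were 23 (0.187%). At 1.5-fold there were 395 lower genes (3.21%) and 296 higher ones (2.4%). Lower genes thus made up 76.3% of those past 2-fold and 57.2% of those past 1.5-fold, or 88.0% and 76.0% after each array was centred on its median. When the median of the other 4 arrays replaced vehicle, 26 genes were at least 2-fold lower and 11 higher, but at 1.5-fold the larger count was on the higher side, with 238 lower and 257 higher. The central 90% of genes lay between −0.49 and 0.48, and the whole range ran from −1.87 to 2.45. Differences of 2-fold were found at every brightness: of the 3084 dimmest kept genes 16 were lower and 6 higher, and of the 3072 brightest 20 were lower and 4 higher. Among the 74 lower genes GSK 690693 gave the lowest of the 5 signals for 39, and vehicle the highest for 55. Since the genes were chosen for a low GSK 690693 signal beside vehicle, these counts only describe them.

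**Figure D1:**
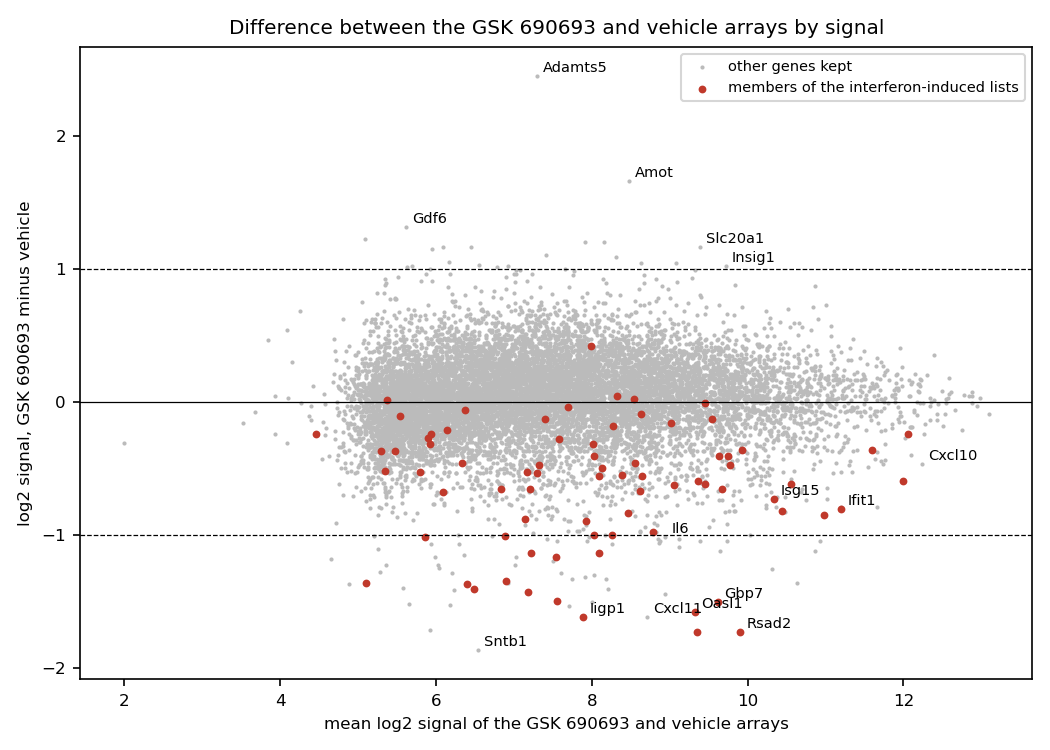
Log2 signal with GSK 690693 minus log2 signal with vehicle (y axis) against the mean log2 signal of both arrays (x axis) for 12311 genes, 1 array per group; dashed lines mark 2-fold. Of 76 members of the interferon-induced lists (red), 72 lie below 0, and Adamts5 stands highest at 2.45.

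Interferon-induced genes were the largest described group among the lower ones. Of 76 kept members of 6 lists of such genes, 36 read at least 1.5-fold lower with GSK 690693 (47.4%, against 3.21% of all genes). At least 1.5-fold higher were 0 (against 2.4%). A difference below 0 was found for 72, where 43.6% of all genes had one, and the median was −0.555 against 0.04 over all kept genes. The same shares of all genes apply to the counts of the single lists below. Against the median of the other 4 arrays the median was −0.3225. In these bulk samples, fewer cells responding and less RNA per cell cannot be told apart. Of the 74 genes at least 2-fold lower, 18 belonged to the 6 interferon-induced lists, which held 76 of the 12311 kept genes. Another 47 of the 74 belonged to none of the 29 gene lists. The lists were written with earlier results of these data known, so their direction is no independent evidence. Several members have close paralogs (the Oas1, Gbp, Trim30 and Ifi200 families), and whether their probes also read those copies is not known.

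The IFIT and viperin genes encode effectors that act on viral RNA and nucleotides. Their 6 kept members all read below vehicle, with a median of −0.67 and 3 past 1.5-fold. Rsad2, which encodes the antiviral enzyme viperin, read 9.04 with GSK 690693, 9.38 with Compound C, 10.46 with doxorubicin, 10.39 with tofacitinib and 10.77 with vehicle. Cmpk2, a mitochondrial nucleotide kinase gene, read 8.49 with GSK 690693, 8.65 with Compound C, 10.09 with doxorubicin, 9.53 with tofacitinib and 10.22 with vehicle. Both were 3.32-fold lower with GSK 690693 than with vehicle, with Compound C close above GSK 690693 and the other arrays nearer to vehicle. Ifit1, whose product binds viral RNA caps, read 10.8 with GSK 690693 and 11.61 with vehicle, 1.75-fold lower, and Compound C stood at 10.72. Ifit2 read 6.91 with GSK 690693 and 7.44 with vehicle, a difference of −0.53.

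The promoters of Rsad2, Gbp7, Ddx60 and Oas1g are shown because they hold the response element and because their genes read 2.55-fold to 3.32-fold lower with GSK 690693. They come from RefSeq on build GRCm38.p6, reach from 250 bases before the start site to 50 after it and are written 5′ to 3′ on the strand of the gene. Capitals mark each match to the interferon-stimulated response element, searched on both strands as GAAA, any 2 bases and GAAA. The matches of Oas1g overlap. Rsad2 lies at chr12:26456403-26456702 on the minus strand, Gbp7 at chr3:142530086-142530385 on the plus strand, Ddx60 at chr8:61927837-61928136 on the plus strand and Oas1g at chr5:120887564-120887863 on the minus strand.
Rsad2: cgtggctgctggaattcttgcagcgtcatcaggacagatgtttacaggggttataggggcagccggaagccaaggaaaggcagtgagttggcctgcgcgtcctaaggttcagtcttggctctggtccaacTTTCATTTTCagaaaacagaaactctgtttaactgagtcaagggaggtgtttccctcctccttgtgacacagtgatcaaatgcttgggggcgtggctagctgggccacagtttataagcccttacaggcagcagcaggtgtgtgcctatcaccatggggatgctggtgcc
Gbp7: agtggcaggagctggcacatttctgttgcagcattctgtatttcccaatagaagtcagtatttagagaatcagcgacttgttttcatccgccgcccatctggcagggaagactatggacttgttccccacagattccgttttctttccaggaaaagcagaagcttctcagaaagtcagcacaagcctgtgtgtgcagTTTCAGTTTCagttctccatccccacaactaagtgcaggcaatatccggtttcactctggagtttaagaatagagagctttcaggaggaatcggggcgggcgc
Ddx60: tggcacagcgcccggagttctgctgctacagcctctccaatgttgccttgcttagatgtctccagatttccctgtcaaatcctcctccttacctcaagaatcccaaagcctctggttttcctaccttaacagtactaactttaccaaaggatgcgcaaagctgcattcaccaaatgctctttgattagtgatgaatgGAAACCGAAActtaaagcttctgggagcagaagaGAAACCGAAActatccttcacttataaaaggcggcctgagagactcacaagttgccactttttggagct
Oas1g: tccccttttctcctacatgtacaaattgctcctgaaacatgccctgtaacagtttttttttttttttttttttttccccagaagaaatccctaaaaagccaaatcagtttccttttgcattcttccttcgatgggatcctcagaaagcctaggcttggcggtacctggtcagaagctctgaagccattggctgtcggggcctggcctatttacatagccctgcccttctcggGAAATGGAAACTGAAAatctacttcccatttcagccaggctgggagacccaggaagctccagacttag

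The matches lay 120 to 111 bases before the start site in Rsad2 and 53 to 44 bases before it in Gbp7, both read on the opposite strand, and within 53 bases of it in Ddx60 and 18 bases in Oas1g. Promoters were listed for 46 of the 74 genes at least 2-fold lower, and 10 of those 46 (21.7%) held the element, against 345 of 9698 kept genes with a promoter (3.56%). Of the 10, 9 were members of the interferon-induced lists and the other was Ifi207, a gene of the Ifi200 family named here after its value was seen. Within the interferon-induced lists the element was found in 15 of 25 genes at least 1.5-fold lower and in 18 of 36 others. The forkhead site GTAAACA, the sequence FOXO factors bind, was found in 11 of 213 genes at least 1.5-fold higher (5.16%) and in 285 of 9698 kept genes (2.94%). Of genes at least 1.5-fold lower, 4 of 282 held this site (1.42%). Past 2-fold it was in 2 of 46 lower genes (4.35%) and 1 of 12 higher ones (8.33%), so the counts are small. A match describes letters in the window and does not show binding.

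Oligoadenylate synthetases with enzyme activity sense double-stranded RNA and make the second messenger that activates RNase L. Membership of the list does not imply that activity. This list had the lowest median of the 29, at −1.18, with 5 of 6 kept members past 1.5-fold. Oasl1, which in mice restrains translation of Irf7, read 8.54 with GSK 690693, 8.46 with Compound C, 9.26 with doxorubicin, 10.0 with tofacitinib and 10.12 with vehicle. For Oas1b the signals were 5.79 with GSK 690693, 6.5 with Compound C, 6.68 with doxorubicin, 5.32 with tofacitinib and 7.2 with vehicle. Oasl1 was thus lowest with Compound C and GSK 690693, also below vehicle with doxorubicin and near vehicle with tofacitinib. Oas1b was lowest with tofacitinib. The differences from vehicle were −1.58 for Oasl1, −1.41 for Oas1b, −1.35 for Oas1g and −1.01 for Oas2.

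The immunity-related and guanylate-binding GTPases, which attack vacuoles of intracellular pathogens, had a median of −0.835, with 6 of 10 past 1.5-fold. Iigp1 read 7.08 with GSK 690693, 7.83 with Compound C, 8.53 with doxorubicin, 5.96 with tofacitinib and 8.7 with vehicle. The signals of Gbp7 were 8.86 with GSK 690693, 8.97 with Compound C, 10.11 with doxorubicin, 8.82 with tofacitinib and 10.37 with vehicle. Iigp1 was 3.07-fold lower with GSK 690693 than with vehicle and lower still with tofacitinib, while for Gbp7 GSK 690693, Compound C and tofacitinib gave nearly the same signal. Mx2, a dynamin-like antiviral GTPase gene, differed from vehicle by −1.37, and Gbp3 and Gbp9 by −1 each. Irgm2 was at −0.67 against vehicle but 0.265 above the median of the other 4 arrays.

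In the ISG15 pathway, which attaches the ubiquitin-like ISG15 to other proteins, 4 of 6 kept members were past 1.5-fold lower. The modifier gene Isg15 read 9.98 with GSK 690693, 10.07 with Compound C, 10.4 with doxorubicin, 10.29 with tofacitinib and 10.71 with vehicle. Herc6, the ligase gene of the pathway in mice, read 8.3 with GSK 690693 and 9.28 with vehicle. Usp18, which removes ISG15 and dampens the interferon receptor, read 10.25 with GSK 690693, 10.56 with Compound C, 10.84 with doxorubicin, 8.1 with tofacitinib and 10.87 with vehicle. Usp18 therefore lay 0.62 below vehicle with GSK 690693 and 2.15 above the tofacitinib array.

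Of 12 kept nucleic acid sensor genes, 9 were at least 1.5-fold lower. Ddx60, a helicase gene linked to RNA sensing, read 6.8 with GSK 690693, 6.68 with Compound C, 8.04 with doxorubicin, 7.9 with tofacitinib and 8.3 with vehicle. Ifih1, which encodes the RNA sensor MDA5, read 10.55 with GSK 690693, 10.74 with Compound C, 11.28 with doxorubicin, 11.48 with tofacitinib and 11.4 with vehicle. Both were low with GSK 690693 and Compound C and close to vehicle with tofacitinib. Tlr3, the endosomal receptor for double-stranded RNA, was at −0.9, the p200 family genes Ifi205, Mndal and Ifi204 at −1.14, −1.02 and −0.84. The DNA sensor gene Cgas was at −0.06, which is named here after its value was seen.

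Among 36 kept genes of other interferon-induced effectors, 9 were past 1.5-fold lower and the median was −0.385. Sp100, a nuclear body component, read 6.96 with GSK 690693 and 8.13 with vehicle, and a second of its probe sets gave 6.96 and 7.96, while its 2 dim ones differed by 0.16 and 0.13. Cd274, the gene of the checkpoint ligand PD-L1, read 6.65 with GSK 690693 and 7.79 with vehicle. Trim30d read 6.47 with GSK 690693, 5.24 with Compound C, 6.58 with doxorubicin, 5.46 with tofacitinib and 7.9 with vehicle, so that its difference of −1.43 from vehicle stands beside one of 0.45 from the median of the other 4 arrays.

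**Figure D2:**
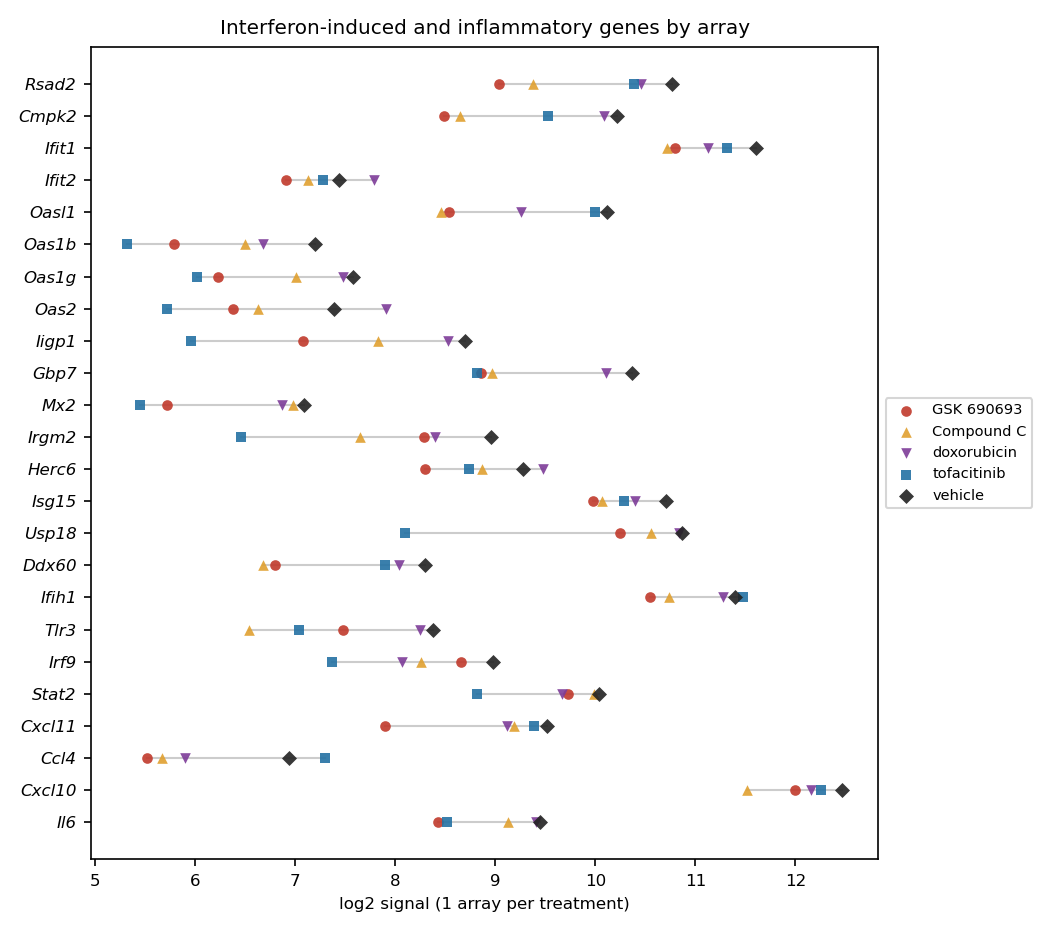
Log2 signal (x axis) of interferon-induced and inflammatory genes (rows) on the 5 arrays, 1 symbol per treatment and 1 array each. The rows were chosen by hand, and the GSK 690693 point is left of the vehicle point in each of them. Members above vehicle are not shown, among them Ptx3 (1.04) and Mmp3 (0.59). Above vehicle were 14 of 36 kept NF-kB dependent genes and 7 of 15 interferon signalling genes. Cxcl11 has its GSK 690693 point 1.22 below the nearest other array.

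Genes of the interferon signalling machinery were close to vehicle. In the list of receptors, JAK kinases, STAT and IRF genes, the 15 kept members ran from −0.33 to 0.32, with a median of 0. Past 1.5-fold were 0 in either direction. Over all genes the shares were 3.21% lower and 2.4% higher, so for 15 genes a count of 0 is near them. Irf9, the DNA-binding subunit of the interferon-stimulated complex, read 8.66 with GSK 690693, 8.26 with Compound C, 8.07 with doxorubicin, 7.37 with tofacitinib and 8.98 with vehicle. Its partner Stat2 read 9.73 with GSK 690693, 9.99 with Compound C, 9.67 with doxorubicin, 8.82 with tofacitinib and 10.04 with vehicle. Their differences from vehicle were −0.32 and −0.31, and both were lowest with tofacitinib. Irf9 lay 0.495 above the median of the other 4 arrays. Ifnb1 read 2.79 with GSK 690693 and 2.86 with vehicle, below the filter on all 5 arrays. MHC class I antigen processing genes had a median of −0.135, with 1 of 16 past 1.5-fold lower (6.25%, against 3.21%), the proteasome activator gene Psme2 at −0.59.

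Set directly against tofacitinib, most interferon-induced genes read higher with GSK 690693. Over the 76 members it read higher for 52 and lower for 23, with a median difference of 0.24. Over all 12311 kept genes it read higher for 5111 and lower for 6967, with a median of −0.04. GSK 690693 read higher for 9 of 10 GTPase genes, 10 of 12 sensor genes and 5 of 6 oligoadenylate synthetase genes. Among other effectors it read higher for 23 and lower for 12, and in the ISG15 list for 3 each. For the IFIT and viperin list it read lower for 4 of 6, with a median of −0.445, and for inflammatory chemokines, which are not among the 6 lists, for 13 of 19. Those last counts lean the same way as the 6967 of 12311 over all genes and rest on few genes. The IFIT and viperin median nevertheless lay below the −0.04 of all kept genes. All of these are comparisons of single arrays with no test.

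Inflammatory chemokine genes read lower in part. Of 19 kept members, 5 were at least 1.5-fold lower (26.3%, against 3.21% of all genes), 0 higher (against 2.4%), and the median was −0.19. Cxcl11, a ligand of CXCR3, read 7.9 with GSK 690693, 9.19 with Compound C, 9.12 with doxorubicin, 9.39 with tofacitinib and 9.52 with vehicle. Ccl4, an inflammatory chemokine gene, read 5.52 with GSK 690693, 5.67 with Compound C, 5.9 with doxorubicin, 7.3 with tofacitinib and 6.94 with vehicle. Cxcl11 was 3.07-fold lower than with vehicle and low on the GSK 690693 array alone among these 5, and Ccl4 was low with 3 compounds. Ccl3 (−0.8), the eotaxin gene Ccl11 (−0.79) and Ccl9 (−0.78) made up the remaining lower members. Cxcl10, the other interferon-induced CXCR3 ligand with a bright signal, read 12 with GSK 690693, 11.52 with Compound C, 12.16 with doxorubicin, 12.26 with tofacitinib and 12.47 with vehicle, 1.39-fold below vehicle.

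Among 36 kept NF-kB dependent genes, 3 were past 1.5-fold lower (8.33%, against 3.21% of all genes) and 2 higher (5.56%, against 2.4%), and their median was −0.13. Il6, an inflammatory cytokine gene, read 8.43 with GSK 690693, 9.13 with Compound C, 9.41 with doxorubicin, 8.52 with tofacitinib and 9.45 with vehicle. Cd80, a costimulatory ligand gene of T cells, read 7.25 with GSK 690693, 7.87 with Compound C, 8.41 with doxorubicin, 8.02 with tofacitinib and 8.76 with vehicle. Il6 was 2.03-fold lower with GSK 690693 and nearly as low with tofacitinib, and Cd80 was 2.85-fold lower and lowest with GSK 690693. The pentraxin gene Ptx3 went the other way, at 9.6 with GSK 690693 and 8.56 with vehicle.

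Transcripts of the AKT kinases were close to vehicle. Akt1 read 10.24 with GSK 690693 and 10.11 with vehicle, and Akt2 7.86 and 7.75. Of 30 kept PI3K and AKT pathway genes, 1 was past 1.5-fold higher and 1 lower (3.33% each, against 2.4% and 3.21% of all genes), and the median was 0.08. The higher one was Pik3cb, the gene of a catalytic PI3K subunit, which read 8.63 with GSK 690693, 8.51 with Compound C, 7.05 with doxorubicin, 8.0 with tofacitinib and 7.74 with vehicle. The lower one was the regulatory subunit gene Pik3r3, at 6.75 with GSK 690693, 7.19 with Compound C, 7.35 with doxorubicin, 7.98 with tofacitinib and 7.39 with vehicle. The mTOR inhibitor gene Deptor stood at −0.58 on its brighter probe set and −0.18 on the other.

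Insulin receptor and adaptor genes read higher with GSK 690693. Of 38 kept FOXO target and receptor feedback genes, 6 were at least 1.5-fold higher and 0 lower, 15.8% against a background of 2.4%, although the list median was 0.155. GSK 690693 gave the highest of the 5 signals for 14 of the 38, and over all kept genes it did so for 1723 of 12311. Irs1, an adaptor of the insulin and IGF1 receptors, read 8.27 with GSK 690693, 7.14 with Compound C, 6.11 with doxorubicin, 7.83 with tofacitinib and 7.48 with vehicle. The insulin receptor gene Insr read 7.97 with GSK 690693, 7.59 with Compound C, 7.55 with doxorubicin, 7.64 with tofacitinib and 7.33 with vehicle. Irs2 read 7.65 with GSK 690693, 8.01 with Compound C, 5.85 with doxorubicin, 6.52 with tofacitinib and 7.05 with vehicle. Irs1 and Insr were thus highest with GSK 690693, at 0.79 and 0.64 above vehicle, and Irs2, at 0.6, was second to Compound C. A dim second probe set of Irs1 differed by 0.02. The other 3 were the pyruvate dehydrogenase kinase gene Pdk4 (0.86), the muscle ubiquitin ligase gene Fbxo32 (0.75) and the cyclin-dependent kinase inhibitor gene Cdkn1b (0.63). The factors Foxo1 and Foxo3 themselves differed by 0.14 and −0.03.

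**Figure D3:**
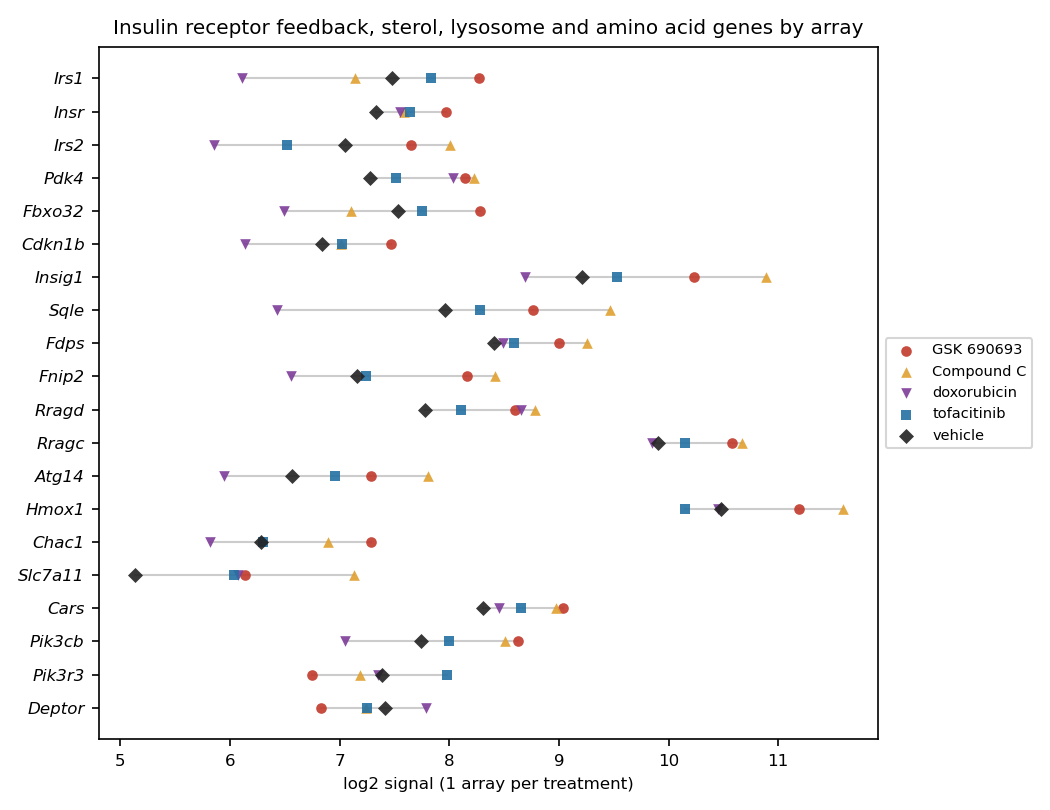
Log2 signal (x axis) of insulin receptor feedback, sterol, lysosome, amino acid and PI3K pathway genes (rows) on the 5 arrays, 1 symbol per treatment and 1 array each. The rows were chosen by hand. GSK 690693 lies right of vehicle in every row but those of Pik3r3 and Deptor. Not shown are Atf3 (−0.79), Atf5 (−0.54) and Sesn2 (−0.53) of the amino acid stress list, which had 31 members above vehicle and 8 below. Compound C lies right of GSK 690693 for Insig1, Sqle and Slc7a11, among others.

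Sterol, lysosome and amino acid stress genes also read higher with GSK 690693, mostly by less than 1.5-fold. Among 31 kept cholesterol and fatty acid synthesis genes 28 lay above vehicle, where 55.2% of all genes did. Of these, 4 were past 1.5-fold (12.9%, against 2.4%), and the median was 0.25. Insig1, which retains the SREBP machinery in the endoplasmic reticulum, read 10.23 with GSK 690693, 10.89 with Compound C, 8.69 with doxorubicin, 9.53 with tofacitinib and 9.21 with vehicle. Squalene epoxidase, Sqle, read 8.76 with GSK 690693, 9.47 with Compound C, 6.43 with doxorubicin, 8.28 with tofacitinib and 7.96 with vehicle. Both genes were higher with GSK 690693 than with vehicle and higher again with Compound C.

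The lysosome and autophagy list had the highest median of the 29, at 0.28, with 8 of 45 past 1.5-fold higher (17.8%, against 2.4% of all genes), 0 lower and 35 above vehicle (55.2% of all genes). Fnip2, the gene of a folliculin partner, read 8.16 with GSK 690693, 8.42 with Compound C, 6.56 with doxorubicin, 7.24 with tofacitinib and 7.16 with vehicle. The genes of the Rag GTPases Rragd and Rragc, which bring mTORC1 to lysosomes, differed by 0.82 and 0.68, the autophagy gene Atg14 by 0.72, haem oxygenase Hmox1 by 0.71 and the proton pump subunit gene Atp6v1b2 by 0.65. Against the median of the other 4 arrays the list median was 0.015.

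Of 39 kept amino acid and integrated stress genes, 3 were past 1.5-fold higher (7.69%, against 2.4% of all genes) and 1 lower (2.56%, against 3.21%). The median was 0.24, or 0.015 against the median of the other 4 arrays. Chac1, whose product degrades glutathione, read 7.29 with GSK 690693, 6.89 with Compound C, 5.82 with doxorubicin, 6.3 with tofacitinib and 6.28 with vehicle, 2.01-fold higher than vehicle. Slc7a11, the cystine transporter gene, read 6.14 with GSK 690693, 7.13 with Compound C, 6.07 with doxorubicin, 6.04 with tofacitinib and 5.13 with vehicle. For Chac1 GSK 690693 was highest, whereas for Slc7a11 vehicle was lowest and Compound C highest. The second probe set of Slc7a11 differed by 0.39. The stress factor gene Atf3 was the lower member, at −0.79. Ribosome biogenesis genes had a median of 0.25, with 34 of 42 above vehicle, where 55.2% of all genes were. Only 1 was past 1.5-fold (2.38%, near the 2.4% of all genes), Grwd1 at 0.64, which lay 0.09 above tofacitinib. GSK 690693 gave the highest of the 5 signals for 19 of the 42, and for 1723 of all 12311 kept genes. Ubtf, a factor of RNA polymerase I, was among the 19, at 0.41. Against tofacitinib the list was nearly level, with GSK 690693 higher for 22 and lower for 20. The median difference from tofacitinib was 0.025, and −0.04 over all kept genes.

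**Figure D4:**
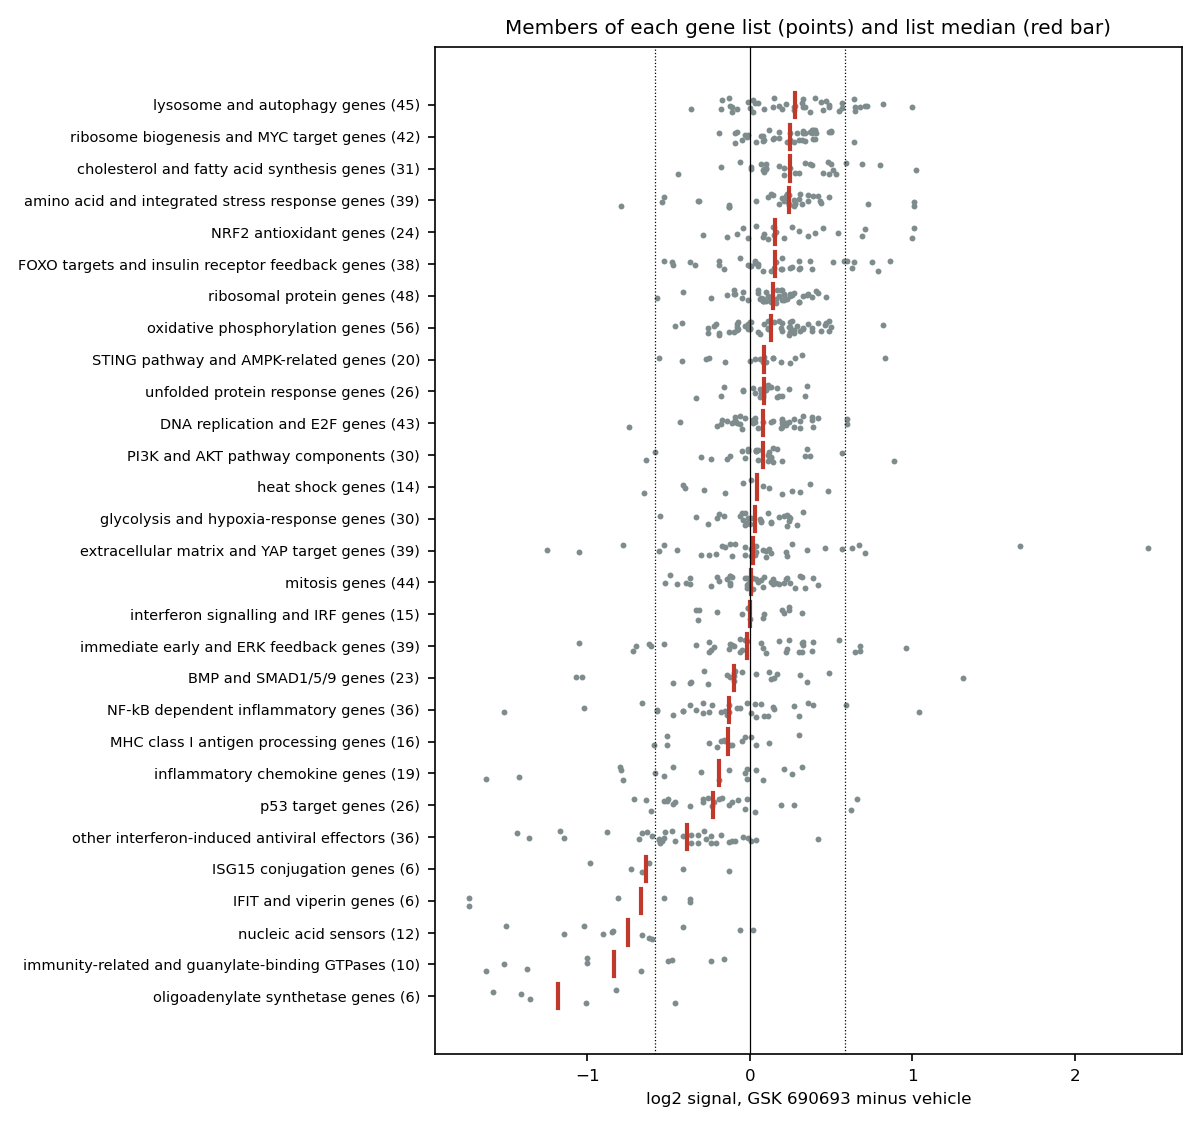
Log2 signal with GSK 690693 minus vehicle (x axis) for the kept members of 29 gene lists (rows, number of kept members in brackets); each point is a gene, red bars are list medians and dotted lines mark 1.5-fold. List medians run from −1.18 for oligoadenylate synthetases to 0.28 for lysosome and autophagy genes, and the 6 lowest medians are those of the interferon-induced lists.

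Growth and matrix genes held the highest single differences without moving as lists. In the matrix and YAP target list 5 of 39 were past 1.5-fold higher (12.8%, against 2.4% of all genes) and 3 lower (7.69%, against 3.21%), with a median of 0.02. Adamts5, an aggrecan-cleaving protease gene, read 8.52 with GSK 690693, 6.69 with Compound C, 6.51 with doxorubicin, 5.93 with tofacitinib and 6.07 with vehicle. Amot, which encodes a YAP-binding scaffold, read 9.31 with GSK 690693, 7.84 with Compound C, 8.11 with doxorubicin, 8.04 with tofacitinib and 7.65 with vehicle. These were the largest differences above vehicle, 5.46-fold and 3.16-fold, and the nearest other array was 1.83 and 1.2 below the GSK 690693 signal. Further large differences above vehicle, of varied roles, were those of Tuba1b (1.22), Hsdl1 (1.16), S100a7a (1.16) and Tnfrsf26 (1.1). Slc20a1, a phosphate transporter gene, differed by 1.16, Fzd3, a Wnt receptor gene, by 1.15, and Kitl, the ligand gene of the receptor KIT, by 1.03. Fzd3 lay 0.16 above the nearest other array, and Kitl read higher with Compound C (8.08) than with GSK 690693 (7.07). Lower in the matrix list were the growth factor gene Tgfb2 (−1.25), the hyaluronan synthase gene Has2 (−1.05) and the smooth muscle gene Cnn1 (−0.78). Has2 nevertheless lay 0.07 above the median of the other 4 arrays.

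BMP ligand genes differed in opposite directions. Gdf6 read 6.27 with GSK 690693, 5.2 with Compound C, 5.47 with doxorubicin, 4.99 with tofacitinib and 4.96 with vehicle. Bmp4 read 7.72 with GSK 690693, 8.14 with Compound C, 7.75 with doxorubicin, 7.89 with tofacitinib and 8.79 with vehicle, and Bmp2 differed from vehicle by −1.03. Gdf6 was high with GSK 690693 among the 5, whereas Bmp4 was high with vehicle. The BMP target and feedback list as a whole had a median of −0.1, which turned to 0.19 against the median of the other 4 arrays. Of its 23 kept members, 1 was past 1.5-fold higher (4.35%, against 2.4% of all genes) and 2 lower (8.7%, against 3.21%).

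Mitosis, DNA replication, glycolysis, unfolded protein response, heat shock, ribosomal protein and oxidative phosphorylation genes had list medians between 0.01 and 0.145, of which those of mitosis, glycolysis and heat shock genes lay below 0 after centring. Of 44 kept mitosis genes, 0 were past 1.5-fold in either direction, where 2.4% of all genes were higher and 3.21% lower. Mki67, the proliferation marker, stood at −0.52. Of 43 replication genes, 2 were higher (4.65%, against 2.4% of all genes) and 1 was lower (2.33%, against 3.21%). The licensing factor gene Cdt1 was among the higher ones, at 0.6, and the lower one was the repressor gene E2f8, at −0.74. Against tofacitinib, however, GSK 690693 read lower for 41 of the 44 mitosis genes and 40 of the 43 replication genes, and for 6967 of all 12311. For p53 target genes the median was −0.225, with 21 of 26 below vehicle, where 43.6% of all genes were. Of the 26, 3 were past 1.5-fold lower (11.5%, against 3.21%) and 2 higher (7.69%, against 2.4%). Of 24 NRF2 antioxidant genes, 19 lay above vehicle and 4 were past 1.5-fold higher (16.7%, against 2.4% of all genes), and the median was 0.155, or 0.0425 against the median of the other 4 arrays. The highest were Slc7a11 and the carbonyl reductase gene Cbr3 (1); Nqo1, at 0.69 above vehicle, read 0.06 below the median of the other 4 arrays.

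Because vehicle is itself 1 array, genes were also ranked by how far GSK 690693 stood from the nearest of the other 4 arrays, which does not rest on vehicle alone. By 1.5-fold or more, GSK 690693 stood above all others for 9 genes (0.0731%) and below all others for 20 (0.162%). The same counts were 9 and 35 for tofacitinib, 23 and 22 for vehicle, 235 and 397 for Compound C and 189 and 1094 for doxorubicin. Above the others, Adamts5 (by 1.83), Amot (1.2) and Gdf6 (0.8) were joined by Foxf1, a forkhead transcription factor gene of mesenchyme, at 9.29 with GSK 690693, 8.01 with Compound C, 6.71 with doxorubicin, 8.26 with tofacitinib and 8.37 with vehicle. Sgk1, a kinase gene related to AKT, read 9.26 with GSK 690693, 8.59 with Compound C, 6.23 with doxorubicin, 8.52 with tofacitinib and 8.59 with vehicle. Foxf1 and Sgk1 were both highest with GSK 690693 and lowest with doxorubicin, with the other 3 arrays close together between them. The BMP receptor gene Bmpr1b (0.63), the tight junction gene Cldn1 (0.62), the junction scaffold gene Afdn (0.61), Epb41l4a (0.61) and the FGF receptor gene Fgfr2 (0.57) completed the 10 highest by this measure.

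Below the others, Cxcl11 stood farthest, by 1.22, followed by Tmtc2, which read 5.78 with GSK 690693, 6.92 with Compound C, 7.4 with doxorubicin, 7.08 with tofacitinib and 6.93 with vehicle. The syntrophin gene Sntb1, lowest of all kept genes against vehicle, read 5.6 with GSK 690693, 6.82 with Compound C, 6.69 with doxorubicin, 6.44 with tofacitinib and 7.47 with vehicle. Cxcl11 was the 1 chemokine, and none of the 6 interferon-induced lists had a member, among the 10 lowest by this measure. The remaining 7 were Ano3 (0.86 below the nearest array), Sprr1a (0.83), Gpr165 (0.81), H4c1 (0.72), Ptgs2os (0.72), the matrix gene Aspn (0.71) and the integrin gene Itga4 (0.7).

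**Figure D5:**
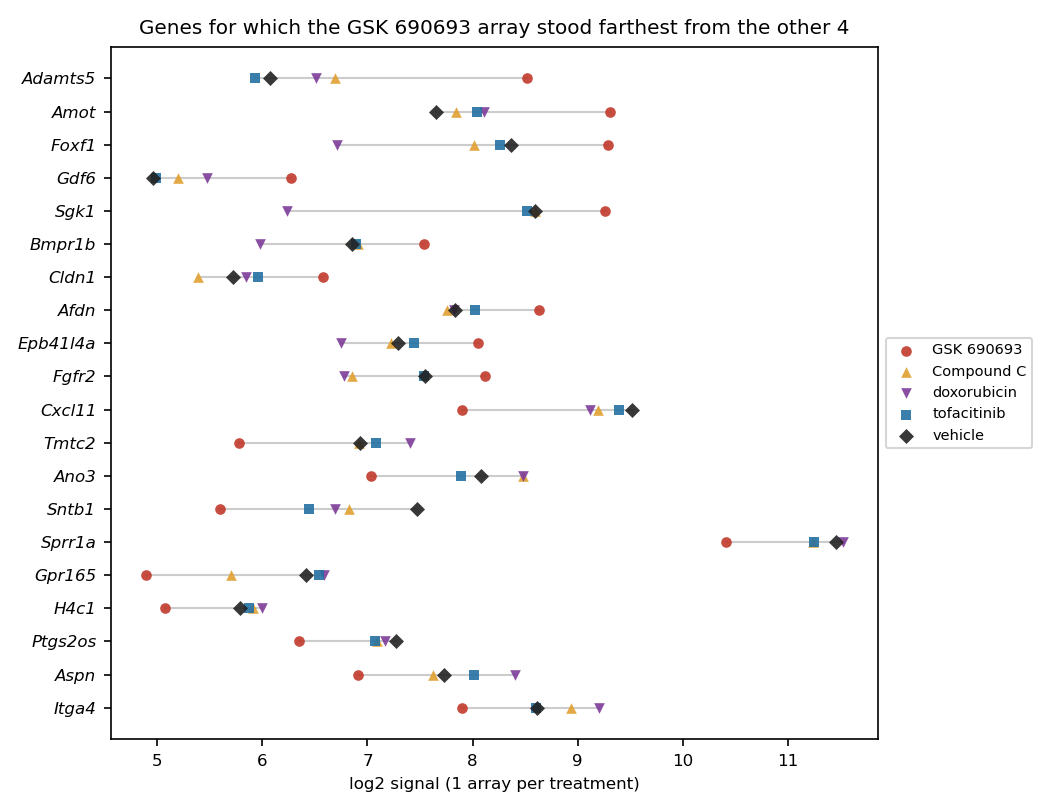
Log2 signal (x axis) on the 5 arrays, 1 symbol per treatment and 1 array each, of the 10 genes for which GSK 690693 stood farthest above (upper rows) and the 10 for which it stood farthest below (lower rows) the nearest other array. The gap is widest for Adamts5, at 1.83, and for Cxcl11, at 1.22.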

How the data were processed

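RNA was measured on 1 Affymetrix array per treatment, from 300 ng of total RNA per sample per the labels' protocols. The deposited values are log2 signal per probe set, made by the authors with Affymetrix Expression Console 1.3.1.187 per the submitters' processing notes. The log base was inferred from the values, which ran from 1.05 to 13.18. Summarisation, background correction, normalization between arrays and genome build were not given in the sources used here. If arrays were normalized to each other, a shift of most genes would have been removed.

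The table held 41345 probe sets, of which 23521 had 1 gene symbol in the platform annotation. Another 1814 had several symbols, and the annotation lacked 16010; 0 value columns were unused. Array medians used as the filter lay between 5.37 and 5.44. A gene tied for its highest value passed if any tied array reached its median. Values were subtracted, counted at 2-fold and 1.5-fold, and summarised by list in Python 3.11.15 with pandas 2.3.3. The counting was tested on simulated data. Because there is 1 array per group, precision is limited by the number of arrays.

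Genes were named from the 12 largest differences each way past 2-fold, the 6 largest in each list and fixed genes. Added to these were the 10 each way by distance of GSK 690693 from the nearest other array. Small RNA genes and undescriptive symbols were left out. Not all genes of this rule are described, and Sytl5 (−1.54) and Tspan18 (−1.53) of the lower 12 are not. The members and the lists were chosen with earlier results of these data known. Alternatives were centring, quantile normalisation, another reference, other filters and the mean over probe sets.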

Additional observations from a re-analysis of the deposited data

Results flagged for a closer look

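Probe sets outside the gene comparisons also differed between the GSK 690693 and vehicle arrays. Among 912 probe sets annotated with several symbols that passed the same filter, 4 read 2-fold or more above vehicle with GSK 690693 and 7 read 2-fold or more below it. Among 4845 probe sets not listed with a gene, 87 read above vehicle by that much and 66 below it. Over the 12311 kept genes the counts were 23 above (0.187%) and 74 below (0.601%). Probe sets not listed with a gene thus passed 2-fold in larger shares both ways, and their larger count lay on the other side. For probe sets with several symbols the larger count lay on the same side as for the kept genes. Both kinds of probe set stand out because they are signal that no comparison used, and they are named for no gene.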

How the results depend on the processing

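No paired analysis was possible because each treatment had 1 array, and for the same reason no array could be left out. Centring each array gave 12 genes at least 2-fold higher, and the median over all 4 other arrays as baseline gave 11, by which 26 were at least 2-fold lower; 4 and 23 of these were among the 23 and 74 found against vehicle. At 1.5-fold, centring gave 541 lower and 171 higher genes, and the other baseline 238 lower and 257 higher ones. Quantile normalisation, the 3 other filters on dim genes, 1 of them chosen after seeing the data, and the mean over probe sets kept each count within 1.5 times. Centring and quantile normalisation moved each list median by less than 0.1. Without a filter on dim genes the median was −1.01 for oligoadenylate synthetases and −0.5 for the GTPases. Against the median of the other 4 arrays the medians kept their sign but moved to −0.4375 for the IFIT and viperin genes, −0.715 for oligoadenylate synthetases, −0.54 for the GTPases, −0.4375 for ISG15 conjugation, −0.3825 for sensors, −0.175 for other effectors, −0.3225 for the 6 lists together, −0.0125 for NF-kB dependent genes, 0.015 for amino acid stress, 0.015 for lysosome, 0.0425 for NRF2 and 0.1875 for mitosis genes. They crossed 0 for ribosomal proteins (−0.075), oxidative phosphorylation (−0.135), BMP genes (0.19) and STING and AMPK-related genes (−0.035). From medians within 0.05 of 0, they also crossed it for immediate early genes (0.245), glycolysis (−0.0625), heat shock (−0.015) and matrix genes (−0.02). Marker medians crossed 0 for fibroblast (−0.065), macrophage (−0.1525) and epithelial lists (−0.015), and without a filter for macrophage (−0.13), endothelial (−0.025) and lymphocyte lists (−0.06). Of 226 genes under the naming rule, 29 crossed 0 with that reference, 5 of them past 1.5-fold against vehicle, namely Has2 (0.07), Irgm2 (0.265), Nqo1 (−0.06), Prkaa2 (−0.03) and Trim30d (0.45). The cause was not tested. Signal over background is unknown, which limits the dim genes.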

Other observations

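Compound C shares AMPK as a target with GSK 690693, and some genes lay on opposite sides of vehicle on their arrays. Nr4a1, an orphan nuclear receptor gene, read 7.72 with GSK 690693, 10.23 with Compound C, 7.59 with doxorubicin, 8.54 with tofacitinib and 8.42 with vehicle. Nr4a2 read 7.42 with GSK 690693, 9.8 with Compound C, 8.45 with doxorubicin, 7.98 with tofacitinib and 8.47 with vehicle. Nr4a3 read 5.0 with GSK 690693, 7.12 with Compound C, 6.31 with doxorubicin, 5.37 with tofacitinib and 5.72 with vehicle. All 3 were below vehicle with GSK 690693, by −0.7, −1.05 and −0.72, and above it with Compound C. In the immediate early and ERK feedback list they stood beside higher members, the zinc finger gene Klf2 (0.96), the MAP kinase phosphatase gene Dusp4 (0.68) and the ERK feedback inhibitor gene Spry1 (0.68), and the list median was −0.02.

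The death receptor gene Fas read 7.86 with GSK 690693, 9.48 with Compound C, 8.42 with doxorubicin, 8.32 with tofacitinib and 8.5 with vehicle. Eda2r, a TNF receptor family gene on the p53 target list, read 7.78 with GSK 690693, 9.81 with Compound C, 8.19 with doxorubicin, 8.41 with tofacitinib and 8.49 with vehicle. Both were lowest with GSK 690693 and highest with Compound C. Prkaa2, a catalytic subunit gene of AMPK, was above vehicle on both arrays, at 6.99 with GSK 690693 and 8.81 with Compound C against 6.16 with vehicle, but GSK 690693 lay 0.03 below the median of the other 4 arrays.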
